A study of Mus musculus with 8 samples.

Results

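A set of 9 genes of myeloid suppression and inflammation was followed: Arg1, Nos2, Il10, Il1b, Cybb, Wfdc17, Ptgs2, Vegfa and Hmox1. The members were chosen by symbol, and all 9 were found among the 33696 genes of the expression files. Each gene is described alone, by cell group and by library, and no mean over the genes was formed.

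Myeloid cells that infiltrate tumors can restrain T cells by depleting arginine with arginase, by releasing nitric oxide or reactive oxygen species, and through cytokines, prostaglandins and vessel growth factors. The same cells can also be inflammatory, above all through interleukin-1. Neutrophils, monocytes and brain-resident microglia differ in which of these products they make, and several of the genes are also used by lymphocytes or by tumor cells.

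The mice carried EPZFTA-RELA ependymoma of genotype NestinCreERT2;Fus1;RFPTdT, so that every library came from tumor-bearing animals and the fusion was switched on in Nestin-expressing cells. Mice randomised at 3 weeks of age received 1 intrathecal dose of mavrilimumab at 5 mg per kg, which binds and blocks the receptor alpha subunit for GM-CSF, or a control antibody (vehicle IgG). Tumor and brain tissue was taken at 6 to 8 weeks per the labels, dissociated, stained for CD45 and the erythroid marker Ter119, and sorted. The paper describes its sequenced cells of treated tumors as taken at recurrence. It sorted extravascular CD45-positive, Ter119-negative cells, a gate that should leave out cells without Ptprc, the gene of CD45. Droplet expression libraries numbered 4, 2 per group, and values from the 4 libraries are given throughout in the order vehicle IgG 1, vehicle IgG 2, mavrilimumab 1 and mavrilimumab 2. How many animals a library pooled is not in the labels. The paper states that tumors were pooled in each group and counts 2 pooled experiments per group. Nothing in the labels says that the libraries of a group came from separate animals, so the p-values measure only the spread between these libraries.

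Cells were barcodes with at least 1000 unique molecular identifiers (UMIs), or 500 for neutrophils, between 200 and 6000 detected genes, and no more than 10% of UMIs from mitochondria, and 39645 passed. They were placed in 6 groups by a few rule genes each: T cells (Cd3e), microglia (P2ry12 and Tmem119), monocytes (Ccr2, Ly6c2 and Lyz2), neutrophils (Retnlg and Cxcr2), dendritic cells (Flt3 and Zbtb46) and neural cells (Nnat and Mdk without Ptprc). T cells numbered 12269, microglia 1775, monocytes 83, neutrophils 130, dendritic cells 108 and neural cells 15747, with 8618 cells that met no rule and 915 that met several. A library with under 20 cells of a group was left out of tests on that group, which left 3 libraries for monocytes and 2, vehicle IgG 2 and mavrilimumab 2, for neutrophils, dendritic cells and neural cells. Lists of other markers of each type were detected in their own group, except that Ly6c1 of the monocyte list stayed at 0 in the monocytes. Monocytes of the 3 libraries tested also carried the dendritic list, at levels given with the treatment comparison below. Dendritic cells of vehicle IgG 2 held their own list in 29.8% of cells at equal depth and the neural list in 57.4%. Free RNA was put at up to 36.2% of their UMIs. This upper estimate came from marker genes of other cell types, so it also counts doublets and mixed cells.

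The libraries differed in depth and content. The files held between 24354457 and 148657643 UMIs, and median UMIs per cell ran from 3293 to 11759. In vehicle IgG 2, 57.3% of cells were neural, against 7.41% or less in the other libraries, and its T cells and microglia carried 542 and 606 CPM (UMIs per 1000000 UMIs of a cell group) of an 8-gene neural list, against 5.37 to 31.4 CPM in those groups elsewhere. Its dendritic cells carried 1570 CPM of that list, against 106 CPM in mavrilimumab 2, and the part of neural RNA in dendritic values was not tested. The 3 T cell receptor libraries analysed bear on the labels as well. Inner sample names in 3 of 3 receptor files name the other treatment, and the mavrilimumab receptor libraries matched crosswise. Of the 2749 barcodes of mavrilimumab receptor library 1, 2491 recurred among cells of expression library mavrilimumab 2. Likewise 4867 of the 5659 barcodes of mavrilimumab receptor library 2 recurred in expression library mavrilimumab 1. Cells of vehicle IgG 1 matched 182 of the 193 barcodes of vehicle IgG receptor library 1. Inner names of the other treatment thus belong to receptor files that match vehicle IgG 1, mavrilimumab 1 and mavrilimumab 2. Any direction between treatments below is therefore one between libraries as labelled. Expression libraries shared between 0 and 60 cell barcodes.

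Promoter sequence is shown for the 4 members whose level separated the myeloid groups most plainly and whose promoter was matched by symbol, as the 250 bases before the transcription start in RefSeq on GRCm38.p6, 5′ to 3′ on the strand of the gene. Sequences were found for 5 of 9 members. The other genes lie at chr10:24915207-24927470 (Arg1), chr11:78920787-78960226 (Nos2), chr1:131019845-131024970 (Il10), chr17:46016993-46032377 (Vegfa) and chr8:75093618-75100593 (Hmox1) on the same build. The windows shown lie at chr2:129371140-129371389 on the minus strand for Il1b and at chr1:150099781-150100030 on the plus strand for Ptgs2. Those of Wfdc17 and Cybb lie at chr11:83703806-83704055 on the plus strand and at chrX:9469325-9469574 on the minus strand. The Il1b window reaches into the span given for the gene, chr2:129364569-129371164. The Cybb window falls inside the span given for the gene and belongs to an inner start. Capitals mark matches to motifs of factors known from myeloid and inflammatory genes: C/EBP (TTNNGNAA), PU.1 (GAGGAA) and AP-1 (TGANTCA) on both strands, and the TATA box (TATAAA) on the plus strand.
Il1b: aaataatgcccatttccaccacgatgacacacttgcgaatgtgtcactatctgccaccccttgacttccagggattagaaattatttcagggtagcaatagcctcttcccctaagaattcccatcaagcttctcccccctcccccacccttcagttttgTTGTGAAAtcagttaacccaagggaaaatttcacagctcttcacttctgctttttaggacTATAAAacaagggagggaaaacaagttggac
Ptgs2: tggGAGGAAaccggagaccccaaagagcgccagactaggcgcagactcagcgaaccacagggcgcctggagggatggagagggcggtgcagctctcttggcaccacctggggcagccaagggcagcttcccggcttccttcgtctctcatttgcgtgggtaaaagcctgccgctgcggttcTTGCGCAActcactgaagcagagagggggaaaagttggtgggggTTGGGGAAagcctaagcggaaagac
Wfdc17: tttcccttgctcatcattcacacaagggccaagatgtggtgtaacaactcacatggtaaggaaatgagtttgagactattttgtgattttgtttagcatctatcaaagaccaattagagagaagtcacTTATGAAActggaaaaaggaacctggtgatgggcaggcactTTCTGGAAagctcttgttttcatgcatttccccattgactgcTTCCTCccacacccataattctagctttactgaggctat
Cybb: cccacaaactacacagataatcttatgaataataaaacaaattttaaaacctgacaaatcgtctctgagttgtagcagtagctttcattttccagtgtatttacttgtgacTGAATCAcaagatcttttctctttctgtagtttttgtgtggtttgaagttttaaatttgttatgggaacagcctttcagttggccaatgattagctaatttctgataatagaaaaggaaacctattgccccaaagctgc
Counted back from the start, the Il1b window held a C/EBP match at -91 to -84 and a TATA box at -31 to -26. Ptgs2 held C/EBP matches at -69 to -62, which reads on both strands, and at -25 to -18, and a PU.1 match at -247 to -242. Wfdc17 held C/EBP matches at -122 to -115 and -81 to -74 and a PU.1 match on the minus strand at -39 to -34, while Cybb held a single AP-1 match at -139 to -133. Of 32851 promoter windows of this length, 36.9% held a C/EBP match, 23.3% a PU.1 match, 6.75% an AP-1 match and 7.59% a TATA box. A hypoxia motif (ACGTG) and an NF-kB motif, held by 16.6% and 3.90% of windows, were searched as well and had no match in these 4. These matches are letters in a window and say nothing of binding.

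**Figure D1:**
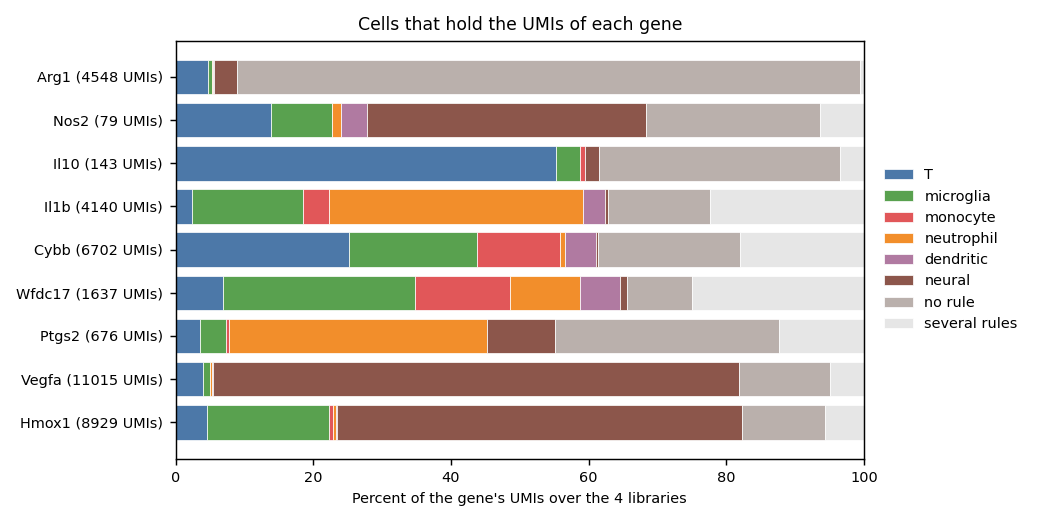
Where the UMIs of each gene were found, as a percent of the gene's UMIs over the 4 libraries (x axis), with the total beside each name and a color for each cell group. Cells that met no rule held 90.6% of Arg1 UMIs, neural cells held 76.4% of Vegfa UMIs, and neutrophils held 36.9% of Il1b and 37.6% of Ptgs2 UMIs. These shares pool libraries with different cells: neural cells held 79.4% of Vegfa UMIs in vehicle IgG 2 and 1.56% to 29.8% in the others. In vehicle IgG 2 neural cells held 71999395 of the 111929638 UMIs of all genes.

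The genes fell into different cells. Neutrophils, 130 of 39645 cells, held 36.9% of all 4140 Il1b UMIs and 37.6% of all 676 Ptgs2 UMIs. By library they held 65.9%, 11.6%, 64.3% and 62.3% of Ptgs2 UMIs, and cells that met no rule held 55.2% in vehicle IgG 2. Neural cells held 76.4% of the 11015 Vegfa UMIs and 58.8% of the 8929 Hmox1 UMIs, mostly from vehicle IgG 2. In that library they also held 71999395 of the 111929638 UMIs of all genes. Their level there was 115 CPM for Vegfa and 71.5 CPM for Hmox1, against 93.1 and 58.1 CPM over all its cells. These shares thus largely follow the share of all UMIs. Cybb UMIs, 6702 in all, were spread over several groups, and the split depended on the library: T cells held 2.48%, 9.34%, 49.6% and 10.3% of them and microglia 66.9%, 12.9%, 5.37% and 14.5%. Of 4548 Arg1 UMIs, 90.6% were in cells that met no rule, although in mavrilimumab 1 T cells held 15 of its Arg1 UMIs and such cells 6. Il1b was split unevenly too, with 64.5% in microglia and 23.5% in neutrophils of vehicle IgG 1. Nos2 and Il10 were nearly undetected, with 79 and 143 UMIs in all cells.

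**Figure D2:**
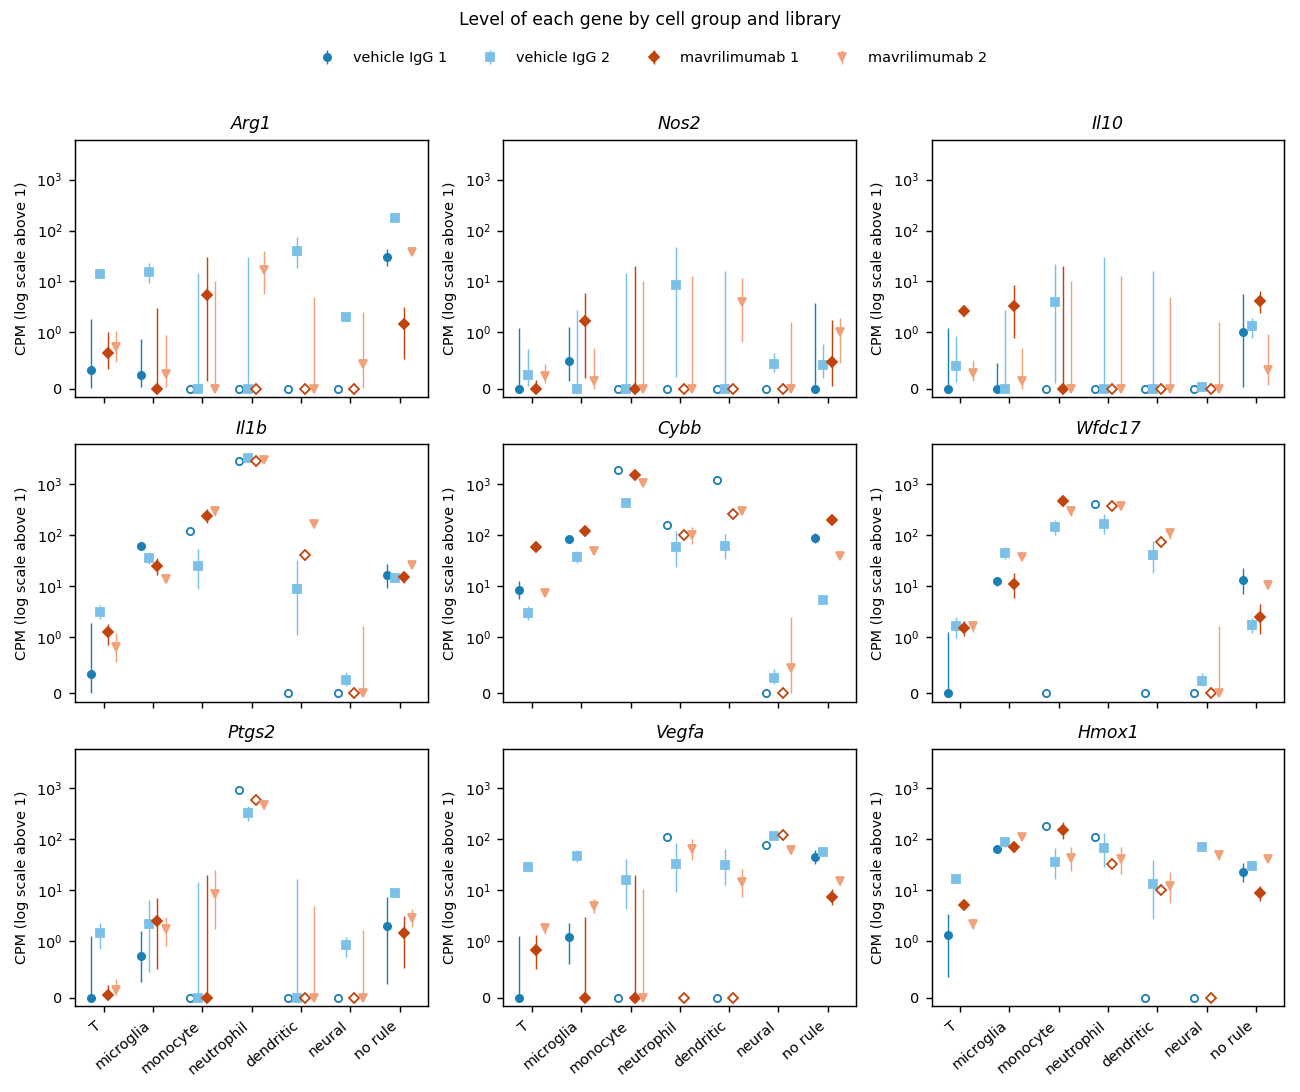
Level of each gene in CPM of the summed UMIs of a cell group (y axis, linear below 1 and logarithmic above) in each library, with 95% counting intervals; open symbols are groups with under 20 cells in that library and have no interval. Il1b and Ptgs2 stand highest in neutrophils in each library, Cybb in monocytes in the 3 libraries with filled monocyte symbols, and Arg1 is above 100 CPM at 1 point, the cells that met no rule in vehicle IgG 2.

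Il1b encodes interleukin-1 beta, a cytokine made as a precursor that the inflammasome activates. Its level in neutrophils was 2791, 3266, 2864 and 2990 CPM, from 9, 56, 13 and 52 cells. The 4 values lay close together although the libraries differed in depth and cell number. After each cell was thinned to 1000 UMIs, 55.6%, 73.3%, 46.2% and 64.0% of neutrophils held an Il1b UMI (77.8%, 80.4%, 69.2% and 73.1% before thinning), against at most 0.106% of T cells, which should lack the gene. A count of 0 in the 231 T cells of vehicle IgG 1 allows a share of up to 1.30%. Median depth was 7828, 1310, 2160 and 4660 UMIs in neutrophils and 12713, 2535, 3858 and 11072 in T cells, and thinning left out 11 neutrophils of vehicle IgG 2 and 2 of mavrilimumab 2.

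In monocytes Il1b stood at 122, 24.1, 237 and 294 CPM, the first value from 2 cells. In microglia it was 59.4, 35.7, 24.6 and 13.9 CPM, and in dendritic cells 0, 8.85, 40.8 and 167 CPM. T cells held 0.335, 3.12, 1.25 and 0.818 CPM. Monocytes of vehicle IgG 2 and the dendritic cells of that library were thus low, and every microglia value was above every T cell value.

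Tests between cell groups came from 1 edgeR quasi-likelihood fit over 17 sums of library and cell group, with the library as a block and a Benjamini-Hochberg FDR over 13845 genes. Nos2 and Il10 did not pass its filter on low counts, so 7 of the 9 members were tested in each contrast. Il1b was higher than in T cells by 11.09 ± 1.19 (log2 fold change ± SE) in neutrophils (FDR 7.33e-05), 6.91 ± 1.06 in monocytes (FDR 0.000925), 5.81 ± 1.14 in dendritic cells (FDR 0.0125) and 4.38 ± 0.92 in microglia (FDR 0.00252). Neutrophils exceeded monocytes by 4.18 ± 1.09 (FDR 0.0426). Monocytes and microglia did not separate (log2 fold change 2.53 ± 1.00, FDR 0.111). Without mavrilimumab 2 the FDR of Il1b was 0.0542 for monocytes against T cells, 0.691 for dendritic cells against T cells and 0.327 for neutrophils against monocytes. Without mavrilimumab 1 the FDR was 0.0571 for dendritic against T cells and 0.0957 for neutrophils against monocytes, and the latter was also lost after ambient counts were subtracted (log2 fold change 3.66, FDR 0.253). Leaving out doublets left monocytes of mavrilimumab 1 alone, a library with no neutrophil sum, and gave 5.36 (FDR 0.237).

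Genes near Il1b in this pathway moved with cell type in the same fit. Of a 10-gene list for interleukin-1 and the inflammasome, 5 were higher and 1 lower in neutrophils than in T cells, with a median log2 fold change of 2.84 against -0.28 over all genes tested. Those with the largest difference were Il1rn (11.48), the receptor antagonist that blocks interleukin-1 signaling, Nlrp3 (9.21), a sensor that assembles the inflammasome, and Il1a (7.095), the sister cytokine. In microglia 6 were higher and 1 lower than in T cells (median 0.96 against 0.05 over all genes), led by Il1a (9.45), Nlrp3 (7.22) and Il1rn (5.42). Il1a was lower in monocytes than in microglia by 14.50 on the log2 scale, a fitted value that depends on monocyte sums near 0 and is no bound. Over the 17 sums, log2(CPM + 1) of Il1b followed A630001O12Rik (Pearson r = 0.97), Ogfrl1 (0.95) and Ccr1 (0.95) most closely; the sums share libraries and cell groups, so these values only describe likeness.

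Ptgs2 encodes cyclooxygenase-2, the inducible enzyme that starts prostaglandin synthesis. Neutrophils held 952, 327, 600 and 469 CPM. Microglia held 0.738, 2.19, 2.46 and 1.71 CPM and T cells 0, 1.44, 0.0418 and 0.141 CPM, and in monocytes the gene was at 0 except for 3 UMIs in mavrilimumab 2. High values were thus found in neutrophils of every library and in no other group. Thinned to equal depth, 55.6%, 31.1%, 38.5% and 26.0% of neutrophils held a Ptgs2 UMI (66.7%, 28.6%, 38.5% and 46.2% before), against 0 to 0.101% of T cells.

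Ptgs2 exceeded the T cell level by 9.81 ± 1.05 in neutrophils (FDR 0.000124) and the monocyte level by 6.63 ± 1.20 (FDR 0.0132). The gene failed the count filter in the treatment fits of T cells, microglia and monocytes, and its only high sums were those of neutrophils. It thus entered this fit through the group where it was high, and the neutrophil tests only describe that difference. The difference of microglia from T cells, 2.52 ± 0.99, did not pass (FDR 0.0683). Both neutrophil calls were lost without mavrilimumab 2, which leaves neutrophils with 1 library (FDR 0.0777 and 0.28), and the one against monocytes also without doublets (FDR 0.168), where monocytes of 1 library remained. In single neutrophils of mavrilimumab 2, 21 of 38 cells with an Il1b UMI also held Ptgs2 (55.3%), against 21.4% of those without Il1b. In vehicle IgG 2 the shares were 31.1% and 18.2%. Depth was not matched in these counts.

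Of an 11-gene prostaglandin list, 4 genes were higher in neutrophils than in T cells and none lower, with Alox5ap (7.08), which serves leukotriene synthesis, ahead of Tbxas1 (4.95), the thromboxane synthase, and Ptgs1 (3.97), the constitutive cyclooxygenase. In microglia 6 were higher and 2 lower than in T cells, and Ptgs1 (8.51), Tbxas1 (8.37) and Hpgd (7.76), which degrades prostaglandins, differed most. Ptgs1 was lower in monocytes than in microglia (log2 fold change -6.19, FDR 0.00104). The gene whose sums followed Ptgs2 most closely was Cxcr2 (r = 0.98), itself a rule gene of the neutrophil group, followed by Acta2 (0.98) and Por (0.96).

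Cells that met no rule held 186 Ptgs2 UMIs in vehicle IgG 2. Of the 123 such cells, 48.0% held Il1rl1, a receptor of type 2 innate lymphoid cells and mast cells, after thinning, against 10.9% of the cells without Ptgs2. S100a9, a neutrophil gene, was found in 8.13% and 0.320%.

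Wfdc17 encodes a small secreted protein with a WAP four-disulfide core domain, made by macrophages and neutrophils. Monocytes held 0, 140, 469 and 294 CPM, the 0 from 2 cells, and neutrophils 412, 168, 366 and 376 CPM. Dendritic cells held 0, 39.8, 71.3 and 107 CPM, microglia 12.3, 44.5, 10.7 and 37.2 CPM, and T cells 0, 1.60, 1.50 and 1.61 CPM. Monocytes and neutrophils overlapped, both lay above microglia in every library with 20 cells of the groups, and T cells lay below all of these in every such library. Among monocytes 24.2%, 23.1% and 27.3% in the 3 libraries tested held a Wfdc17 UMI at equal depth (51.5%, 73.1% and 59.1% before), against 0 to 0.0506% of T cells.

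Wfdc17 differed from T cells by 7.62 ± 0.67 in monocytes (FDR 1.40e-05), 7.51 ± 0.72 in neutrophils (FDR 2.67e-05), 5.43 ± 0.71 in dendritic cells (FDR 0.000968) and 4.57 ± 0.59 in microglia (FDR 9.37e-05). Monocytes exceeded microglia by 3.06 ± 0.62 (FDR 0.00652). Neutrophils and monocytes were not distinguished (-0.11 ± 0.69, FDR 0.985). Without mavrilimumab 2 the FDR rose to 0.0671 for neutrophils and 0.178 for dendritic cells against T cells, and to 0.122 for monocytes against microglia. In mavrilimumab 2 neutrophils, 17 of 38 cells with Il1b held Wfdc17 (44.7%), against 7.14% of those without. For vehicle IgG 2 it was 7 of 45 (15.6%) against 9.09%, and depth was again not matched.

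The other WAP family genes tested, 3 of 4 listed, were called in the same cells for 2 of 3. Wfdc21 was higher in neutrophils than in T cells by 13.88 and in monocytes by 9.75, and Slpi, a protease inhibitor, by 7.51 and 4.12. Neither passed between microglia and T cells. Wfdc17 sums followed Pirb (r = 0.98), Gpr35 (0.96) and Tgfbi (0.96).

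Cybb encodes gp91-phox, the catalytic subunit of the phagocyte NADPH oxidase, and lies on the X chromosome. Monocytes held 1863, 433, 1528 and 1030 CPM. Dendritic cells held 1204, 61.9, 255 and 301 CPM, neutrophils 159, 58.6, 99.9 and 99.2 CPM, and microglia 82.9, 37.2, 121 and 48.4 CPM. Monocytes were highest in the 3 libraries with 20 or more of them, while vehicle IgG 1 had 2 monocytes and 2 dendritic cells, whose 95% counting intervals overlapped (1425 to 2393 and 860 to 1639 CPM). Vehicle IgG 2 gave the lowest value in each of the 4 myeloid groups. At equal depth 50.0%, 39.4%, 76.9% and 77.3% of monocytes held a Cybb UMI, the first from 1 of 2 cells (100%, 78.8%, 100% and 95.5% before).

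Cybb was higher in monocytes than in T cells by 6.37 ± 0.53 (FDR 8.48e-06), than in microglia by 3.69 ± 0.50 (FDR 0.000603) and than in neutrophils by 2.85 ± 0.65, printed here for neutrophils minus monocytes as -2.85 (FDR 0.0265). Against T cells it was also higher in dendritic cells (4.37 ± 0.58, FDR 0.00104), neutrophils (3.52 ± 0.65, FDR 0.00328) and microglia (2.68 ± 0.45, FDR 0.000557), and lower in neural cells (-4.26 ± 0.75, FDR 0.00143). The difference between dendritic cells and monocytes did not pass (-2.00 ± 0.58, FDR 0.0946). Without the library block the calls for microglia, neutrophils and dendritic cells against T cells were lost (FDR 0.0894, 0.166 and 0.0823), and the call for neutrophils against monocytes was lost in 6 alternatives (FDR 0.0794 to 0.963). Without mavrilimumab 2 the FDR was 0.252 for neutrophils, 0.168 for dendritic cells and 0.0582 for neural cells against T cells, and 0.0665 for monocytes against microglia, where leaving out doublets, and with them all but 1 monocyte library, gave 0.195.

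The partners of gp91-phox followed cell type too. Of 6 NADPH oxidase genes, 4 were higher in monocytes and 3 in neutrophils than in T cells, and none lower. Ncf1, the p47-phox subunit, was higher by 3.95 in monocytes and 5.02 in neutrophils. In neural cells 5 of 6 were lower, with a median log2 fold change of -5.63 against -0.07 over all genes. Rac2, the small GTPase of the complex, was lower in microglia than in T cells (-2.36). Cybb sums followed Ms4a6c (r = 0.95), Nampt (0.94) and Gpx1 (0.94).

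Cybb UMIs were also counted in T cells, chiefly in 1 library. T cells held 8.39, 2.96, 57.0 and 7.36 CPM, so that mavrilimumab 1 stood far above the other 3. In that library 691 of 5262 T cells held a Cybb UMI (13.1%, and 5.19% at equal depth), and the share was 1.30%, 0.228% and 0.638% in the others at equal depth. Of the 691, 19.1% held Foxp3, the regulatory T cell factor, against 6.59% of the other T cells, and 49.8% held Ikzf2 (Helios) against 24.7%. The B cell gene Ighm was in 39.1% of them against 19.5%, and Cd74, a gene of antigen-presenting cells, in 20.1% against 4.66%. T cells of this library also carried 2373 CPM of a 4-gene B cell list, with none of the 4 at 0, against 107 to 205 CPM in the other libraries. An estimated 38.4% of their UMIs were free RNA, and Cybb was at 63.3 CPM in the near-empty droplets of this library, above the T cell level. It was above the T cell level in vehicle IgG 1 and mavrilimumab 2 as well, at 28.7 and 15.9 CPM. The part of B cell RNA and of free RNA in the Cybb level of T cells was not tested.

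Among cells that met no rule, Cybb stood at 88.1, 5.35, 198 and 38.7 CPM. The 238 such cells with Cybb in mavrilimumab 1 held Jchain, the joining chain of secreted IgM and IgA, in 58.8% against 7.31% of those without Cybb, Igkc in 65.6% against 6.66%, and Cd79a in 45.0% against 3.73%. In mavrilimumab 2, Cd79a was in 57.4% of the 108 cells with Cybb and 4.84% of the others. Cells with Cybb and no rule thus held B lineage transcripts more often than the rest in both libraries.

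**Figure D3:**
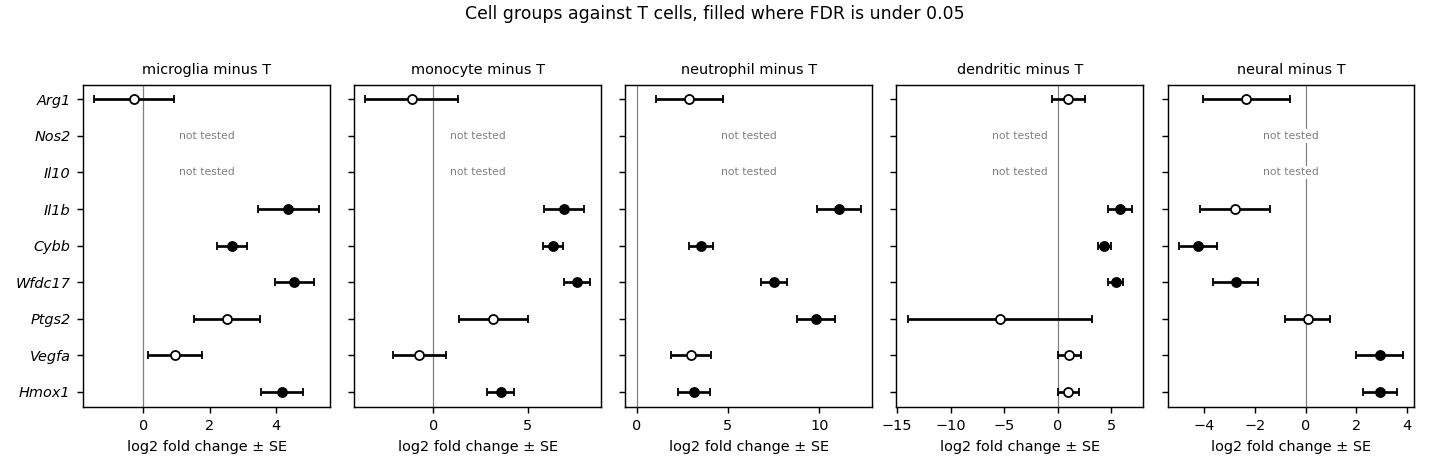
Log2 fold change ± SE (x axis) of each gene between a cell group and T cells, from the edgeR fit over 17 sums; filled points have an FDR under 0.05 and the axes differ between panels. Il1b, Cybb and Wfdc17 are filled in all 4 myeloid panels, Ptgs2 in the neutrophil panel alone, and Vegfa in the neural panel alone.

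Hmox1 encodes heme oxygenase-1, which splits heme to biliverdin, iron and carbon monoxide. Microglia held 63.4, 86.7, 69.6 and 113 CPM, and neural cells 71.5 and 48.3 CPM in vehicle IgG 2 and mavrilimumab 2. Monocytes held 183, 36.1, 155 and 42.3 CPM and neutrophils 111, 67.0, 33.3 and 41.1 CPM. T cells held 1.34, 16.3, 5.14 and 2.20 CPM, and dendritic cells at most 13.3 CPM. The 4 microglia values ran from 63.4 to 113 CPM, and microglia exceeded T cells in every library.

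Hmox1 was higher than in T cells in microglia (4.195 ± 0.63, FDR 0.000253), monocytes (3.57 ± 0.72, FDR 0.00538), neural cells (2.94 ± 0.67, FDR 0.00661) and neutrophils (3.16 ± 0.89, FDR 0.0299). Monocytes and microglia did not separate (-0.63 ± 0.70, FDR 0.595). Without mavrilimumab 2 the FDR was 0.12 for monocytes, 0.166 for neural cells and 0.458 for neutrophils, and without mavrilimumab 1 it was 0.0643 for monocytes. Microglia with an Hmox1 UMI held Apoe, a lipid carrier of activated microglia, more often than those without, at 81.2% against 49.1%, 85.7% against 69.1%, 77.4% against 59.3% and 84.2% against 71.2% in the 4 libraries after thinning. Near-empty droplets of vehicle IgG 2 and mavrilimumab 2 held Hmox1 at 67.8 and 41.1 CPM. The first value rests on 25 counts. In mavrilimumab 1 the droplets held 7.16 CPM and monocytes 155 CPM (103 to 223). Neutrophils (67.0 and 41.1 CPM), monocytes (36.1 and 42.3 CPM) and neural cells (71.5 and 48.3 CPM) of vehicle IgG 2 and mavrilimumab 2 lay near or below the droplet level, as microglia of vehicle IgG 2 did within counting error, while microglia of mavrilimumab 2 were higher at 113 CPM (106 to 121). The 4 calls were also made with ambient counts subtracted. Log2 fold changes were then 6.70 for microglia (FDR 0.000262), 5.66 for monocytes (FDR 0.00211), 5.97 for neural cells (FDR 0.0011) and 5.85 for neutrophils (FDR 0.00617). The upper estimate of free RNA was 23.95%, 26.04% and 38.4% in T cells of vehicle IgG 1, vehicle IgG 2 and mavrilimumab 1. In microglia of these libraries it was 0.4155%, 24.29% and 1.393%. It was 0 in monocytes of both mavrilimumab libraries and in neutrophils of mavrilimumab 2, so nothing was subtracted there. In each library subtraction thus took a larger share from T cells than from microglia, monocytes, neural cells or neutrophils. The kept calls and larger differences therefore do not test free RNA in those groups. Its part in their Hmox1 level was not tested. In vehicle IgG 2 the neural list stood at 606 CPM in microglia and 377 CPM in monocytes, and its part in their Hmox1 level was not tested.

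Of a 15-gene heme and NRF2 list, 8 of 14 tested were higher and 1 lower in microglia than in T cells (median 1.43 against 0.05 over all genes). Slc40a1, the iron exporter ferroportin, differed most (8.25), ahead of Blvrb (2.79), a biliverdin reductase, and Bach1 (2.19), the repressor of Hmox1. In neutrophils 6 were higher and 1 lower, led by Slc40a1 (8.95) and Slc7a11 (8.61), the cystine transporter. Hmox1 sums followed the proton pump genes Atp6v0c (r = 0.96) and Atp6v1a (0.93) and Ltbr (0.92).

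Vegfa encodes vascular endothelial growth factor A. In the 2 libraries with enough neural cells, these held 115 and 62.5 CPM, and 9.29% and 4.91% of them had a Vegfa UMI at equal depth (29.6% and 19.7% before). Neutrophils held 111, 33.5, 0 and 65.0 CPM from 7, 4, 0 and 19 UMIs. Near-empty droplets held 84.1 CPM in vehicle IgG 2, from 31 counts, and 50.6 CPM in mavrilimumab 2. In these libraries the 95% counting intervals of neutrophils, 9.13 to 85.8 and 39.1 to 102 CPM, reached the droplet level. Those of neural cells were 112 to 117 and 52.6 to 73.7 CPM. The upper estimate of free RNA was 6.391% and 1.641% of UMIs in these neural cells, and 23.75% and 0 in the neutrophils. A level near that of droplets does not give the part of free RNA in it, and that part was not tested. Microglia held 1.23, 47.4, 0 and 4.99 CPM and T cells 0, 28.5, 0.836 and 1.78 CPM. Vehicle IgG 2, the library rich in neural cells, was thus high in T cells and microglia alike.

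Neural cells exceeded T cells in Vegfa by 2.92 ± 0.93 (FDR 0.0287), a call lost without mavrilimumab 2 (FDR 0.224) and without the library block (FDR 0.143). No other contrast with T cells was called for Vegfa, including neutrophils (2.98 ± 1.07, FDR 0.0778) and microglia (0.94 ± 0.82, FDR 0.415). In vehicle IgG 2 the 248 T cells with Vegfa held the neural genes Nnat in 56.1% and Dlk1 in 56.9%, against 28.6% and 25.6% of the other T cells, and the 135 T cells with Hmox1 held Nnat in 68.9% against 29.0%. Near-empty droplets of that library held 84.1 CPM of Vegfa and 67.8 CPM of Hmox1. The part of neural RNA in these T cell levels was not tested. Of the 14 genes of a hypoxia and VEGF list, 3 were higher in neutrophils than in T cells, Ankrd37 (2.78), Bnip3 (2.34) and the glucose transporter gene Slc2a1 (1.71), and none in neural cells, where Ankrd37 was lower (-2.62). Vegfa sums followed Igfbp2, Clu and Rnd1 (r = 0.97 for each).

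Arg1 encodes arginase-1, which hydrolyses arginine and is a classical mark of suppressive myeloid cells. Few UMIs were found in the myeloid groups. Monocytes held 0, 0, 1 and 0 UMIs and neutrophils 0, 0, 0 and 5, all 5 in 1 cell. Microglia held 2, 21, 0 and 2 UMIs and dendritic cells 0, 9, 0 and 0. For vehicle IgG 2 these were 15.3 CPM in microglia and 39.8 CPM (95% counting interval 18.2 to 75.6, from 3 cells) in dendritic cells, against 13.9 CPM in T cells and 5.43 CPM in near-empty droplets. With 0 counts in 249201 and 354382 summed monocyte UMIs of vehicle IgG 2 and mavrilimumab 2, the limit of 3 counts allows up to 12.04 and 8.47 CPM. No contrast between cell groups was called for Arg1, for instance neutrophils against T cells (2.89 ± 1.82, FDR 0.309).

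Cells that met no rule held Arg1 at 30.4, 174, 1.44 and 38.5 CPM, from 30, 3738, 6 and 346 UMIs. Vehicle IgG 2 was highest and mavrilimumab 1 lowest, and the libraries of the 2 treatments overlapped. In vehicle IgG 2, 1137 of these 6372 cells held Arg1 (17.8%, and 8.35% at equal depth), against 1.67% and 0.607% of T cells there. The 1137 cells held genes known from type 2 innate lymphoid cells more often than the rest. At equal depth 24.4% held Il13 against 2.14% of the rest, 43.7% Il1rl1 against 4.60%, 35.3% Il17rb against 4.18% and 20.5% Nmur1 against 1.99%. Lyz2, a myeloid gene, was in 0.264% against 0.841%, and Mrc1 was at 0 in the cells with Arg1. The 30 cells with Arg1 in mavrilimumab 2 held Il13 in 23.3% against 0.0823%, Il1rl1 in 43.3% against 0.988%, Il17rb in 40.0% against 0.905% and Nmur1 in 20.0% against 0.165%. Across the 17 sums Arg1 followed Il5 (r = 0.91), a cytokine of type 2 innate lymphoid cells, Nmur1 (0.91) and Gm16271 (0.88). Those sums leave out the cells that met no rule, so this likeness does not describe them.

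Arg2, the mitochondrial arginase, was the arginine gene of neutrophils, with a difference from T cells of 9.10 ± 0.99 (FDR 0.000141) and from monocytes of 5.14 ± 1.11 (FDR 0.0235). It was the 1 gene called of 8 tested in a 10-gene list for arginine and nitric oxide in neutrophils against T cells. In monocytes against T cells it was again the 1 gene called (3.96, FDR 0.0401). Of all genes tested, 8.51% were higher and 8.15% lower in neutrophils, and 8.18% and 6.62% in monocytes.

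Nos2 encodes inducible nitric oxide synthase. Its UMIs numbered 4, 49, 4 and 22 per library over all cells, and 32 of the 79 were in neural cells of vehicle IgG 2. The level in those neural cells was 0.444 CPM, against 0.438 CPM over all cells of that library. Monocytes held none, neutrophils 1 and microglia 4, 0, 2 and 1. A count of 0 in monocytes allows up to 12.04, 16.6 and 8.47 CPM in the 3 libraries tested, and lower levels were not detectable at this depth.

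Il10 encodes interleukin-10, an anti-inflammatory cytokine of regulatory T cells, B cells and macrophages. T cells held 0, 5, 64 and 10 UMIs, or 0, 0.401, 2.68 and 0.282 CPM, and cells that met no rule held 1, 29, 17 and 3 UMIs. Monocytes held 1 UMI, microglia 0, 0, 4 and 1, and neutrophils none. In mavrilimumab 1 the 48 T cells with Il10 held Ctla4, an inhibitory receptor of regulatory T cells, in 45.8% against 12.8% of the others at equal depth, and the 14 cells with Il10 and no rule held Jchain in 100% against 20.4%. In vehicle IgG 2 the 24 cells with Il10 and no rule held Il2ra, the alpha chain of the interleukin-2 receptor, in 54.2% against 14.9%. Il10 was too sparse for a test between cell groups. Of 6 genes of interleukin-10 signaling, 2 were higher and 1 lower in microglia than in T cells, where 20.6% and 16.4% of all genes tested were. In monocytes 1 was higher and 1 lower, where 8.18% and 6.62% of all genes tested were. Il10ra, a receptor chain, was higher in both (2.75 and 1.62), Jak1, a kinase of this receptor, was lower in both (-1.31 and -1.43), and Socs3, a feedback inhibitor, was higher in microglia (2.21).

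The counts of members called, and those of the gene lists above, can be read against all 13845 genes. Against T cells, microglia had 4 of 7 members higher and none lower, where 20.6% of all genes tested were higher and 16.4% lower. Monocytes had 4 of 7 higher (8.18% of all genes, with 6.62% lower), neutrophils 5 of 7 (8.51%, with 8.15% lower) and dendritic cells 3 of 7 (5.1%, with 2.09% lower). Neural cells had 2 higher, Vegfa and Hmox1, and 2 lower, Cybb and Wfdc17, where 18.1% of all genes were higher and 19% lower. Monocytes against microglia had 2 members higher and none lower (6.16% and 9.06% of all genes), and neutrophils against monocytes had 2 higher and 1 lower (3.24% and 3.73%). Dendritic cells against monocytes had none, with 0.65% of all genes higher and 1.03% lower, at an unadjusted p under 0.05 for 2917 genes and with 1105 calls by DESeq2. The members were picked as myeloid genes, so a share above the background is not independent of that choice. Both neutrophil counts include Ptgs2, which entered the fit through neutrophils, so its calls there only describe its level and lend the counts no weight. A 13-gene list of other myeloid suppressor genes had 8 of 12 tested higher in neutrophils, 7 higher and 1 lower in monocytes and 7 higher in microglia than in T cells. In dendritic cells none was higher and 1 lower (median -0.99 against -0.03 over all genes), and in neural cells none was higher and 6 lower. S100a8, S100a9, Chil3 and Mrc1 of this list also mark neutrophils, monocytes or macrophages, so these counts are not independent of the grouping.

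The treatment comparison asked whether these genes differed within a cell group between libraries labelled mavrilimumab and vehicle IgG. By the paper, the tumors were sampled at recurrence, so the comparison does not measure the early effect of the dose. edgeR called no member in T cells, microglia or monocytes. The background was as low: 0% of 14382 genes were called in T cells, 0% of 12148 in microglia and 0.349% of 5738 in monocytes, where all 20 called genes were lower with mavrilimumab and the single vehicle library gave no spread of its own. An unadjusted p under 0.05 was reached by 755 genes in T cells and 381 in microglia, and DESeq2 called 198 and 6. Neutrophils, dendritic cells and neural cells had 1 library per treatment with 20 cells, so they have values and no test.

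Among the 5 members tested in microglia, Il1b was the nearest to a difference. The libraries labelled mavrilimumab, at 24.6 and 13.9 CPM, lay below both labelled vehicle IgG, at 59.4 and 35.7 CPM (47.6 ± 16.7 against 19.2 ± 7.54 CPM, mean ± SD, n = 2 each). The exact two-sided permutation test gave p = 0.3333, its lower limit for 2 against 2 libraries. The edgeR log2 fold change was -1.29 ± 0.43 with an unadjusted p of 0.0306 and an FDR of 1. Without vehicle IgG 2 it was -1.73 (FDR 0.0308), in a fit with 1 vehicle library assumed to vary like the other group and 127 of 13430 genes called, and when cells that met several rules were counted in each group it turned to 0.29 (FDR 1). Il1b was the 1 tested member of 5 whose microglia levels did not overlap between the treatments, a state reached by 19.1% of all genes tested in the lower direction and by 12.6% in the higher. In T cells none of the 6 tested members was without overlap, against 22% of genes lower and 11.3% higher.

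The share of microglia with Il1b was imprecise. At equal depth 1.78%, 1.73%, 2.53% and 1.35% of microglia held an Il1b UMI (10.5%, 4.05%, 4.55% and 4.64% before), from 10, 6, 5 and 9 cells. The shares at equal depth overlapped, with 95% intervals such as 0.855% to 3.24% in vehicle IgG 1 and 0.825% to 5.79% in mavrilimumab 1, which leave room for a smaller or a larger share. Each cell with Il1b held on average 8.19, 3.50, 3.33 and 3.42 UMIs, and the highest cell 141, 17, 8 and 18. In vehicle IgG 1 the top 5 of 59 such cells held 62.1% of its 483 Il1b UMIs. Microglia with Il1b also held the chemokine Ccl4 and the cytokine Tnf more often: Ccl4 in 42.4% against 11.9%, 78.6% against 38.3%, 55.6% against 12.2% and 61.3% against 32.7%, and Tnf in 16.95% against 2.18%, 21.4% against 11.1%, 33.3% against 6.88% and 32.3% against 13.5%, in the 4 libraries at equal depth. S100a8 and S100a9, part of a 7-gene neutrophil list, were at 0 in these cells at equal depth in 3 libraries. In mavrilimumab 1 they were in 11.1% of the 9 cells.

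**Figure D4:**
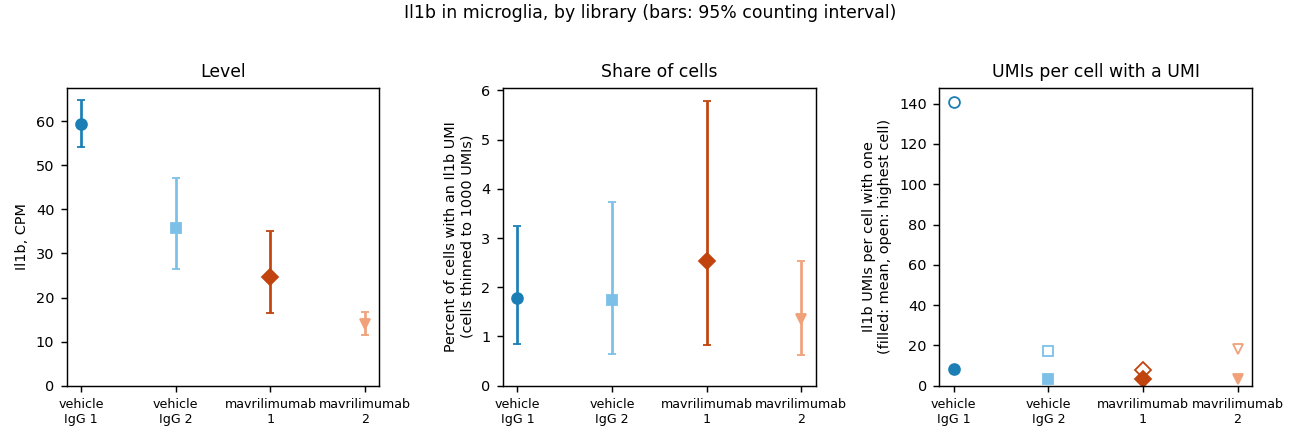
Il1b in microglia of each library: level in CPM (left), percent of cells with a UMI at equal depth (middle), both with 95% counting intervals, and UMIs per cell with a UMI (right, mean filled and highest cell open). The level runs from 59.4 to 13.9 CPM without overlap between treatments, while the shares, from 1.35% to 2.53%, overlap and 1 cell of vehicle IgG 1 holds 141 UMIs.

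In monocytes Il1b stood at 24.1 CPM in vehicle IgG 2 and at 237 and 294 CPM in the libraries labelled mavrilimumab, while the 2 monocytes of vehicle IgG 1, which entered no test, gave 122 CPM. The edgeR log2 fold change was 3.53 ± 0.65 (unadjusted p = 0.000425, FDR 0.0847), with 1 vehicle library that was assumed to vary like the other group. The FDR was 0.000214 with no filter on low counts and 0.0219 with cells that met several rules included, under the same assumption, and none of the monocyte treatment values has a spread between vehicle libraries behind it. The 3 sums rest on 33, 26 and 22 cells, while 51, 40 and 103 cells met the monocyte rule. The rest also met another rule and were left out, so the loss was largest in mavrilimumab 2. In that library 1 cell held 82 of the 104 Il1b UMIs of the sum. The 3 sums also differed in other markers. A 7-gene neutrophil list stood at 586, 154 and 3852 CPM, with Mmp9 at 0 in all 3 and S100a8 and S100a9 at 0 in mavrilimumab 1, an 8-gene dendritic list at 6112, 24135 and 3561 CPM, and the neural list at 377 CPM in vehicle IgG 2 and 0 in the others. Their part in the Il1b difference was not tested.

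Cybb in monocytes stood at 433, 1528 and 1030 CPM in the same libraries (1.65 ± 0.49, unadjusted p = 0.00859, FDR 0.228) with an FDR of 0.0467 when low counts were not filtered. Wfdc17 (1.52 ± 0.57, FDR 0.336) and Hmox1 (1.45 ± 0.85, FDR 0.547) did not pass. In T cells Cybb gave 2.64 ± 1.16 (unadjusted p = 0.0843, FDR 0.792), set by mavrilimumab 1, and Vegfa -3.34 ± 2.13 (FDR 0.802) and Arg1 -3.31 ± 1.59 (FDR 0.792), both set by vehicle IgG 2. Without that library Vegfa and Arg1 in T cells turned to 7.80 (FDR 0.463) and 1.16 (FDR 0.699). The thinned share of T cells with Hmox1 was lower in both libraries labelled mavrilimumab (0.627% and 0.354%) than in those labelled vehicle IgG (0.866% and 0.961%), with an exact permutation p of 0.3333, again the lower limit, and the CPM overlapped. Vegfa in microglia was -2.80 ± 1.82 (FDR 1) and turned to 1.49 without vehicle IgG 2 (FDR 0.561). Without vehicle IgG 1 it was -3.49 (FDR 0.0101), where the lone vehicle library was assumed to vary like the other group, 1312 of 11503 genes were called, and microglial Vegfa in that library, 47.4 CPM, lay below the 84.1 CPM of near-empty droplets.

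**Figure D5:**
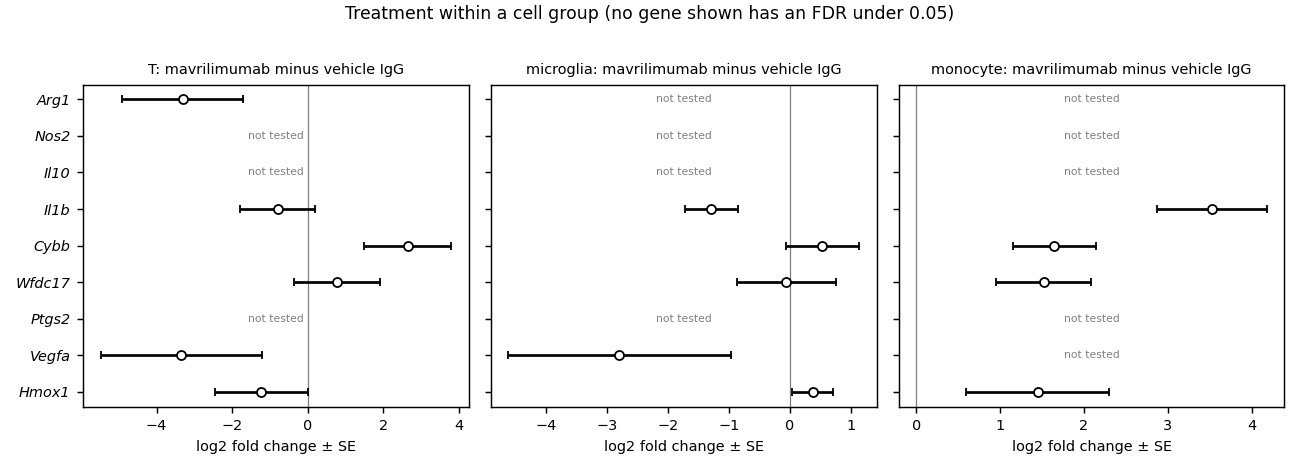
Log2 fold change ± SE (x axis) between libraries labelled mavrilimumab and vehicle IgG within T cells, microglia (2 libraries against 2) and monocytes (2 against 1), from edgeR. Every point is open, since no member had an FDR under 0.05, and the monocyte value of Il1b, 3.53, lies farthest from 0.

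The groups not tested had 20 or more cells only in vehicle IgG 2 and mavrilimumab 2. Il1b in neutrophils was 3266 (95% counting interval 2950 to 3606) and 2990 CPM (2795 to 3195), and Ptgs2 was 327 (232 to 446) and 469 CPM (394 to 554), with intervals that overlapped. Wfdc17 was 168 (102 to 259) and 376 CPM (309 to 454), with intervals that did not, but the 9 neutrophils of vehicle IgG 1 gave 412 CPM (269 to 604) and the 13 of mavrilimumab 1 gave 366 CPM, so that the treatments overlapped. Dendritic Il1b was 8.85 and 167 CPM, and 115 of the 125 UMIs behind the latter were in 5 cells. Neural Vegfa was 115 and 62.5 CPM. These intervals cover counting error only.

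The difference between microglia and T cells in their response to treatment was tested as an interaction. edgeR called 0% of 15664 genes, none of 8 tested members among them, with 332 genes at an unadjusted p under 0.05 and 1 call by DESeq2. Cybb came nearest (-1.51 ± 0.58, unadjusted p = 0.0509, FDR 1). None of the genes on the pathway lists was called in any treatment comparison.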

How the data were processed

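Sorted cells from mouse ependymoma were profiled by droplet 5′ expression sequencing in 4 libraries, 2 per treatment. The deposited counts are UMIs per gene and barcode in unfiltered matrices. The authors' processing notes name Cell Ranger 7.1.0, Scanpy 1.8.2 and mm10, whereas the file headers name Cell Ranger 9.0.1. Receptor libraries served only the comparison of barcodes, and vehicle IgG receptor library 2 was not analysed here.

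Cells were filtered and grouped by rule genes as given in the text, and a cell had to meet exactly 1 rule. UMIs were summed per library and group, and sums of 20 or more cells were tested with edgeR 4.0.16 (filterByExpr, TMM, quasi-likelihood, Benjamini-Hochberg FDR under 0.05 over all genes). Treatment was fitted within a cell group, cell groups in 1 fit with library as block. Shares used cells thinned to 1000 UMIs, with exact Clopper-Pearson intervals; CPM has exact Poisson intervals, and 0 counts a limit of 3. Intervals and limits cover counting error only. Near-empty droplets held 10 to 100 UMIs. Doublets were kept. Cells were ranked by Scrublet score and a share set in advance, 0.8% per 1000 cells, was marked, which came to 0.813% to 21.4% per library. Leaving the marked cells out was an alternative, beside DESeq2 1.42.0, other filters, ambient subtraction and leaving out each library. The 9 members, the gene lists and the panels of carrier genes were chosen with earlier results of these data known. Genes of a list were named when among the 3 largest called differences of a contrast, and similar genes as the 3 highest correlations of log2(CPM + 1). One item of these lists is not reported here.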

Additional observations from a re-analysis of the deposited data

Results flagged for a closer look

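Cells that met none of the 6 rules entered no comparison and held signal of members there. Arg1 had 3738 UMIs (174 CPM) in such cells of vehicle IgG 2 and 30 UMIs (30.4 CPM) in those of vehicle IgG 1. Vegfa had 45 UMIs (45.6 CPM) in those of vehicle IgG 1. All 3 values lie above the limit of 3 counts.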

How the results depend on the processing

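Of 384 member results between cell groups, 325 kept direction and side of the threshold over the alternatives, and of 152 treatment results 130 did. Il1b in neutrophils and microglia, Wfdc17 in microglia and monocytes, Cybb in monocytes and Hmox1 in microglia kept their call against T cells in every alternative run. The cause of the changes below was not tested.

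Counts of genes called by treatment were 0 in T cells (198 by DESeq2, 0 to 0 leaving out 1 library) and 0 in microglia (DESeq2 6, no filter on low counts 5, leaving out 1 library 0 to 1312, the highest without vehicle IgG 1, and 127 without vehicle IgG 2). In monocytes 20 became 10 by DESeq2, 383 with no filter, 107 with cells of several rules, 0 at 2000 UMIs and 3 without immune cells holding neural RNA, an alternative chosen after seeing the data. The interaction gave 0, with 1 by DESeq2 and 0 to 1079 leaving out 1 library. With the replicate number as a block, microglia gave 92 calls; same-numbered libraries deviated together (correlation 0.434, and 0.435 in T cells), but 2 pairs do not establish a pairing, and no member was called.

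Leaving out 1 library gave 3506 to 7869 calls for microglia (5132 with all), 594 to 2697 for monocytes (2049), 164 to 2888 for neutrophils (2307), 0 to 2078 for dendritic cells (996) and 1105 to 7402 for neural cells (5126) against T cells, 247 to 2284 for monocytes against microglia (2108), and 0 to 880 (965) and 0 to 325 (232) for neutrophils and dendritic cells against monocytes. Without doublets, which left monocytes of 1 library, these gave 732 calls against T cells and 218 against microglia (881 with ambient counts subtracted), and neutrophils against monocytes 19 (ambient 240). Dendritic against T cells gave 2035 by DESeq2, 1996 with no filter, 4218 with several rules, 1799 without doublets, 1593 without neural RNA and 587 with no library block, which gave 3261 for neural cells. Dendritic cells against monocytes gave 1105, 1075, 54, 0, 461 and 114 in these settings, and 3 with ambient counts subtracted.

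Log2 fold changes by treatment that reversed were, in T cells, Il1b with several rules (0.53) and Hmox1 with ambient counts subtracted (8.245) or without neural RNA (0.048). Leaving out 1 library gave -4.20 to 1.16 for Arg1, -1.48 to 1.74 for Il1b, -4.28 to 7.80 for Vegfa and -2.05 to 1.565 for Hmox1, each highest without vehicle IgG 2. In microglia they were Wfdc17 with no filter (0.042), several rules (0.99) or without doublets (0.017), and Il1b (0.29) and Hmox1 (-0.077) with several rules. Leaving out 1 library gave -1.27 to 1.23 for Wfdc17, -0.25 to 1.20 for Cybb and -9.37 to 1.49 for Vegfa. Between cell groups, Arg1 in neutrophils against T cells ran from -10.35 to 4.66 over the libraries left out, Hmox1 in monocytes against microglia was 0.94 without doublets, and Wfdc17 in neutrophils against monocytes was 0.012 by DESeq2, 0.044 without neural RNA and -1.01 to 0.37 over the libraries left out. Wfdc17 in neural against T cells lost its call in 4 alternatives (FDR 0.0621 to 0.227). For monocytes, treatment without vehicle IgG 2 or either mavrilimumab library, with a block, or without doublets left no test and was not run. Depth limited Nos2 and Il10, and the 83 monocytes, 130 neutrophils and 108 dendritic cells.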
